A study of Mus musculus with 6 samples.

Results

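Collagen chain genes encode the polypeptides of the collagen family, and 43 of them were among the 18417 named genes read in human neuroblastoma xenografts with and without the CXCR4 inhibitor BL-8040. Members were taken by symbol: every gene whose platform symbol is COL, a type number, A and a chain number, each read by its brightest probe set over the 6 arrays. The 43 genes were divided into 11 fibrillar chains, 8 basement membrane chains (the 6 type IV chains with COL15A1 and COL18A1) and 24 other chains. COL17A1 was not analysed here. BL-8040 mice, 3 in number, carried tumours of SK-N-BE(2), a human MYCN-amplified neuroblastoma cell line, in the adrenal gland of the NSG strain, and received 400 µg of BL-8040 under the skin for 14 consecutive days from day 7 after cell injection. Control mice, also 3, carried the same tumours in the same strain; what they received is not stated, and their labels repeat the text on BL-8040 dosing. All 6 tumours thus come from 1 cell line in mice that lack T, B and natural killer cells, and 1 human array was run per tumour.

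A collagen molecule is a triple helix of chains in which glycine recurs at a fixed short spacing. Fibrillar collagens such as type I and type III form the tensile fibrils of connective tissue and are mostly made by fibroblasts, whereas type IV collagen forms the sheet-like network of basement membranes under endothelium and around Schwann cells and tumour nests. The remaining types decorate fibrils, form beaded filaments next to cells, anchor epithelia or span the cell membrane. In a xenograft the tumour cells are human and the fibroblasts and vessels are those of the mouse. The probes were designed for human transcripts, and how much of a signal came from mouse RNA bound to them was not measured here. In bulk tumour RNA, fewer cells of a type and less RNA per cell cannot be told apart.

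Each array gave a log2 signal per probe set, with array medians between 5.35 and 5.42. BL-8040 replicate 3 stood apart: its median correlation with the other arrays was 0.994, against 0.996 for each of the other 5, and it lay 22.7 units from the centre of the first principal component, where those lay within 10.1 units. Of the 11 genes of the neuroblastoma marker list, 10 were measured, with signals between percentile 49.2 and 99.9 of all genes. In 9 of these 10 the log2 difference (BL-8040 minus control) was negative, with a median of -0.26. Over all genes 58.5% of the differences were negative. TH and DBH, enzymes of catecholamine synthesis, differed by -0.64 and -0.62, and by -0.18 and -0.22 without BL-8040 replicate 3; MYCN, at 0.03, was the exception. HAND2, a transcription factor of the sympathetic lineage, was the 1 marker at an unadjusted limma p under 0.05 (-0.21, adjusted p = 0.644). At that p 5.08% of all genes were lower and 2.64% higher. All 10 were lowest in BL-8040 replicate 3, as were 30.5% of all genes and 3529 of the 9209 genes above the median signal. The list mean ran from 8.06 to 8.72 in BL-8040 tumours and from 8.55 to 8.89 in controls. The adrenal cortex markers, of the host organ, lay between percentile 8.6 and 32.6. A percentile here ranks probe-set signals and does not compare transcript numbers between genes.

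No collagen chain passed the test. The question was whether CXCR4 inhibition changed the collagen transcripts of the tumours, and in limma, fitted to all 18417 genes, 0 of 43 chains had a Benjamini-Hochberg adjusted p under 0.05, where the share over all genes was 0%. The smallest adjusted p of a chain was 0.644. The differences (BL-8040 minus control, log2 scale throughout) ran from -0.31 for COL6A1 to 0.34 for COL1A2. At an unadjusted limma p under 0.05 stood 4 chains, all lower after BL-8040 (9.30% of the chains, against 5.08% of all genes), and 0 higher (against 2.64% of all genes). These 4 were COL6A1, COL6A2, COL8A2 and COL25A1. In 10 chains (23.3%) all 3 BL-8040 values lay below all 3 control values, where 9.05% of all genes did so; in 0 chains did they lie above, where 4.93% of all genes did so. A negative difference was found in 31 of 43 chains (72.1%) and in 58.5% of all genes, and the median difference was -0.07 over the chains and -0.02 over all genes.

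**Figure D1:**
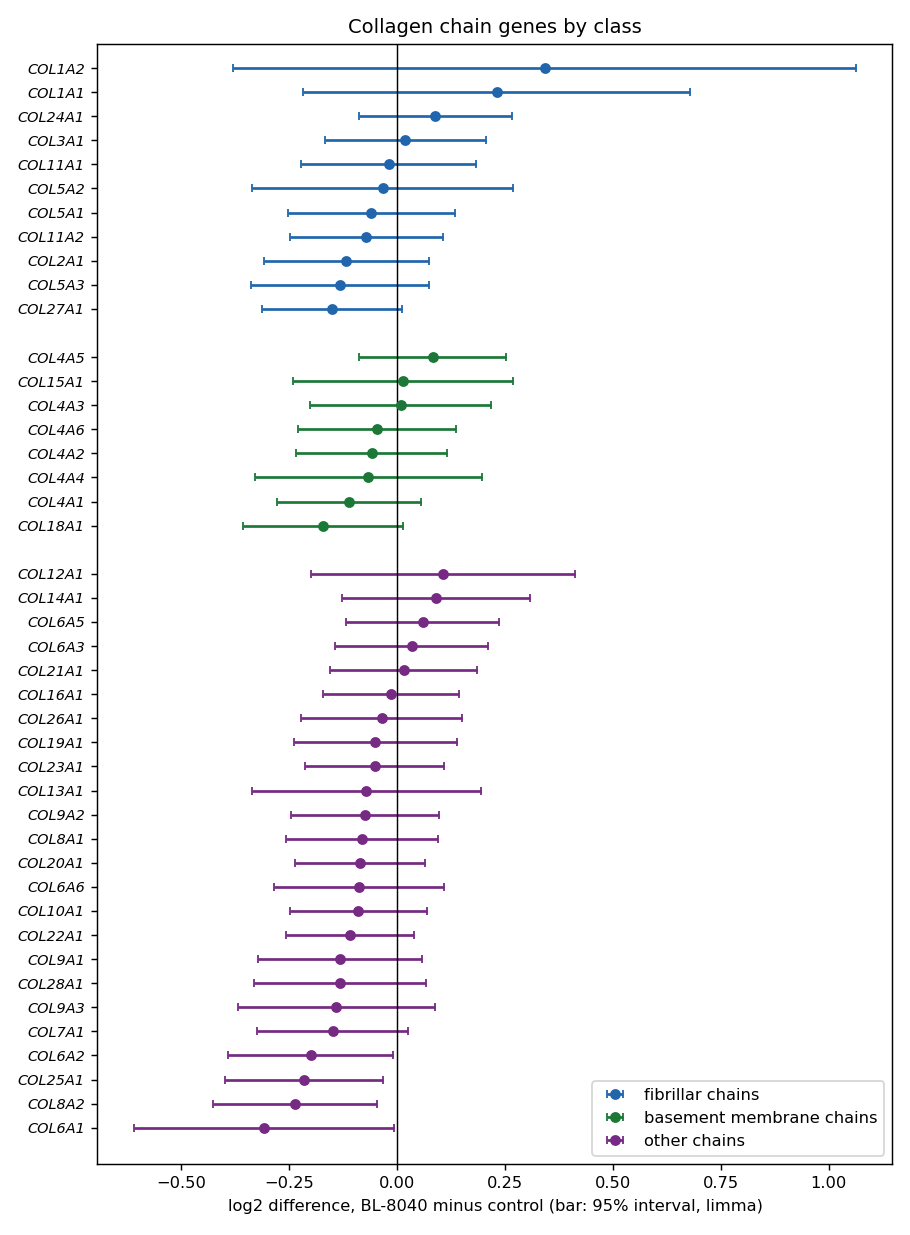
Log2 difference, BL-8040 minus control, of the 43 collagen chain genes, sorted within fibrillar, basement membrane and other chains; points are differences and bars are 95% intervals from limma (n = 3 arrays per group). COL1A2 (0.34) and COL1A1 (0.23) lie farthest right with the widest intervals, and only the intervals of COL6A1, COL6A2, COL8A2 and COL25A1 lie wholly below 0.

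Type I collagen, the main fibril former of connective tissue, was the most variable collagen among the treated tumours. COL1A1, which gives its alpha 1 chains, measured 9.02, 8.73 and 9.65 in BL-8040 replicates 1, 2 and 3, against 8.80, 9.01 and 8.90 in the controls. COL1A2, which gives its alpha 2 chain, measured 7.23, 6.55 and 8.15 in the BL-8040 tumours, against 6.91, 7.05 and 6.94 in the controls. In both genes BL-8040 replicate 3 was the highest of the 6 arrays and BL-8040 replicate 2 the lowest, so the treated values enclosed the controls. Both genes ranked all 6 arrays in the same order. The BL-8040 mean of COL1A2 was 7.31 ± 0.80 and the control mean 6.97 ± 0.07 (SD, n = 3 each), and those of COL1A1 were 9.13 ± 0.47 and 8.90 ± 0.10.

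The spread of COL1A2 among BL-8040 tumours lay at percentile 99.9 of all genes and that of COL1A1 at percentile 99.4, while their control spreads lay at percentiles 34.1 and 54.6. For COL1A2 the BL-8040 level was 1.27-fold that of the controls, a difference of 0.34 ± 0.32 (SE), and limma gave an adjusted p of 0.774. For COL1A1 it was 0.23 ± 0.20 (SE), 1.17-fold, with an adjusted p of 0.757. Exact two-sided permutation tests gave p = 0.7 for COL1A2 and 0.6 for COL1A1, where 3 against 3 arrays cannot give less than 0.1. Single tumours decided these values. Leaving out BL-8040 replicate 3 gave -0.08 for COL1A2 and -0.03 for COL1A1, and leaving out BL-8040 replicate 2 gave 0.72 and 0.43, with unadjusted p under 0.05 in both. The COL1A1 over COL1A2 ratio varied with an SD of 0.34 among treated and 0.04 among control tumours.

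Type III collagen, which is laid down with type I in loose tissue, had a smaller spread. COL3A1 measured 9.36, 9.15 and 9.37 in the BL-8040 tumours, against 9.25, 9.27 and 9.30 in the controls. Its treated values again lay on both sides of the controls, but within 0.23 log2 units over all arrays, and the difference of 0.02 had a 95% interval from -0.17 to 0.21. Type V collagen starts fibrils and sets their width. COL5A1 measured 6.53, 6.39 and 6.27 in the BL-8040 tumours, against 6.41, 6.43 and 6.53 in the controls. COL5A2 measured 6.604, 6.123 and 6.186, against 6.198, 6.319 and 6.496, so that its highest array was BL-8040 replicate 1. Its SD among BL-8040 tumours lay at percentile 94.6 of all genes. COL5A3 measured 5.73, 5.86 and 5.96, against 5.88, 5.96 and 6.11. The groups overlapped in all 3 type V genes, with differences of -0.06, -0.03 and -0.13 and adjusted p of 0.861, 0.951 and 0.710; without control replicate 3 that of COL5A3 was -0.069.

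**Figure D2:**
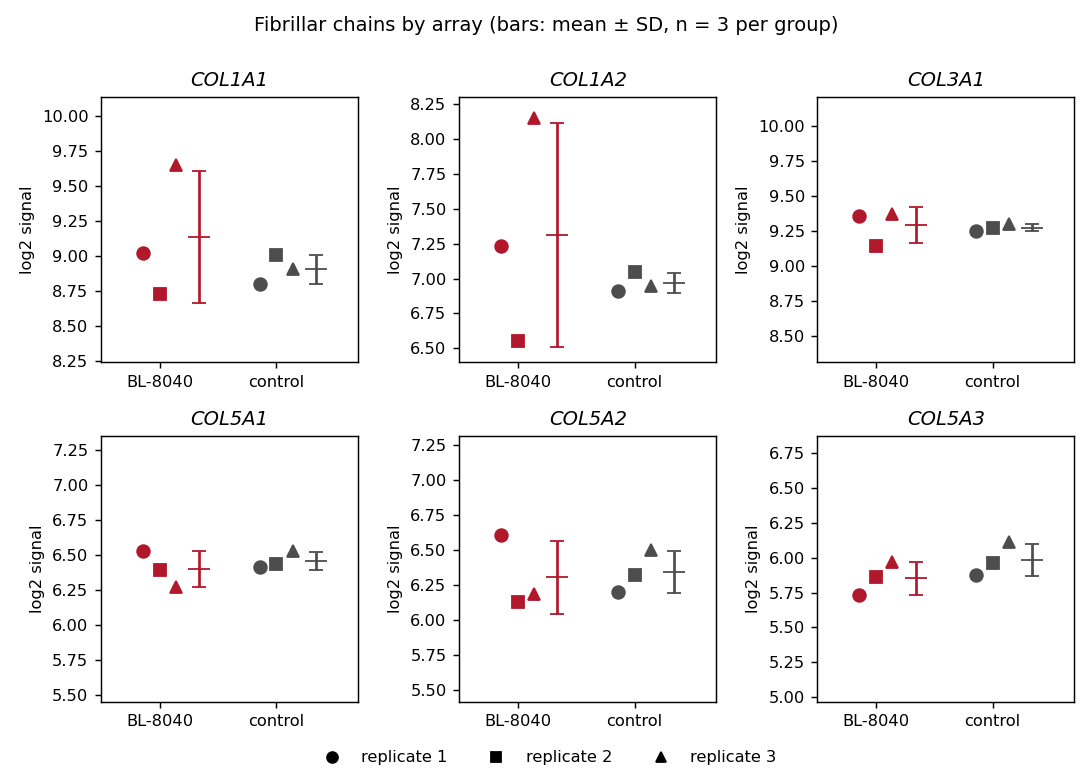
Log2 signal of 6 fibrillar chains in each BL-8040 and control array; marker shapes give the replicate number, bars are mean ± SD (n = 3 per group), and every panel spans the same number of log2 units. COL1A1 and COL1A2 spread widely in the BL-8040 group with replicate 3 highest and replicate 2 lowest, whereas COL3A1, COL5A1 and COL5A3 stay close to the controls. COL5A2 spreads less than the type I chains, with BL-8040 replicate 1 highest and replicate 2 lowest.

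The other fibrillar chains belong to cartilage or to minor fibrils. COL27A1 was the fibrillar chain whose groups did not overlap, at 5.61 ± 0.03 in BL-8040 tumours and 5.76 ± 0.07 in controls (SD, n = 3 each), with a limma adjusted p of 0.646. COL2A1, the cartilage collagen, differed by -0.12 (-0.060 without control replicate 3), COL24A1 by 0.09 (0.049 without BL-8040 replicate 1) and COL11A1 by -0.02, with either sign when an array was left out. COL11A2 was the only chain with several probe sets, 3 in all: the brightest gave a difference of -0.07 (-0.011 without control replicate 3) and the other 2, which hold the same values in every array, gave -0.22.

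Markers of the cells that make or surround collagen were read beside these values. Of 14 host fibroblast markers, 7 had a positive and 7 a negative difference, the median being 0.03; 2 were higher and 0 lower at an unadjusted p under 0.05, beside 2.64% and 5.08% of all genes. POSTN, a matrix protein of activated fibroblasts that binds type I collagen, measured 6.18, 6.22 and 6.94 in the BL-8040 tumours, against 5.97, 5.78 and 5.46 in the controls. TAGLN, a smooth muscle and myofibroblast protein, measured 4.75, 4.65 and 5.11, against 4.52, 4.58 and 4.53. ACTA2, the smooth muscle actin, measured 9.41, 9.20 and 9.89, against 9.12, 9.39 and 9.32. Without BL-8040 replicate 3 the difference of POSTN was 0.46 in place of 0.71, that of TAGLN 0.16 in place of 0.30 and that of ACTA2 0.030 in place of 0.22. These 3 genes were highest in BL-8040 replicate 3, as COL1A1 and COL1A2 were, but DCN, a fibroblast proteoglycan, was lowest there (9.29, where the other treated tumours had 9.72 and 9.63 and the controls 9.64, 9.70 and 9.69). In BL-8040 replicate 3, 5 of the 14 markers were highest and 5 lowest, beside 16.3% and 30.5% of all genes. The mean log2 signal of the list ran from 6.40 to 6.46 in BL-8040 tumours and from 6.30 to 6.42 in controls. FAP, MFAP5 and TCF21 were dim, at percentiles 4.7, 10.1 and 18.2 of all genes. Of 11 myeloid markers 7 were higher and 4 lower, and of 5 measured Schwann cell markers 1 was higher and 4 lower. At an unadjusted limma p under 0.05 stood 1 myeloid marker, higher (LYZ, 0.32), and 1 Schwann cell marker, lower (SOX10, -0.17). At that p 2.64% of all genes were higher and 5.08% lower. Most of these myeloid and Schwann cell markers were dim: 3 of the 11 myeloid and 0 of the 5 Schwann cell markers lay above the median signal of all genes. The part of these cells, and of the lower neuroblastoma markers in BL-8040 replicate 3, in the type I values was not tested.

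Basement membrane chains differed little. COL4A1 and COL4A2, which build the common type IV network of vessels and lie head to head in the genome, were read at modest signals. COL4A1 measured 5.20, 5.12 and 5.16 in the BL-8040 tumours, against 5.36, 5.22 and 5.23 in the controls, without overlap. Its difference was -0.11 ± 0.07 (SE), with a limma adjusted p of 0.704, and was -0.066 without control replicate 1. COL4A2 measured 5.56, 5.77 and 5.61, against 5.71 in each control to 2 decimals. Its groups overlapped because BL-8040 replicate 2 lay above the controls, and its difference was -0.06, with a 95% interval from -0.23 to 0.12 (-0.017 without BL-8040 replicate 1).

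COL4A3, COL4A4 and COL4A5 form the network of the kidney filter, and COL4A6 pairs with COL4A5 elsewhere. COL4A3 measured 4.19, 4.23 and 4.50 in the BL-8040 tumours, against 4.29, 4.32 and 4.27 in the controls. COL4A4 measured 4.36, 4.43 and 4.36, against 4.18, 4.53 and 4.65. COL4A5 measured 4.75, 4.89 and 4.83, against 4.81, 4.73 and 4.68, and COL4A6 measured 4.24, 4.30 and 4.08, against 4.23, 4.22 and 4.32. All 4 groups of values overlapped, at differences between -0.07 and 0.08 and signals between percentile 22.5 and 30.2. Of the multiplexins, which carry sugar chains in the basement membrane zone, COL18A1 (the source of endostatin) measured 6.39, 6.36 and 6.43 in the BL-8040 tumours, against 6.43, 6.57 and 6.68 in the controls. Its highest treated value lay just below its lowest control value, and its difference of -0.17 ± 0.08 (SE) had an adjusted p of 0.646 and was -0.11 without control replicate 3. COL15A1 stood at 4.30 ± 0.17 in BL-8040 tumours and 4.29 ± 0.16 in controls (SD, n = 3 each).

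Vessel markers stood beside them as follows. Of 12 endothelial markers, 5 were higher and 7 lower, with 1 in each direction at an unadjusted p under 0.05 (2.64% of all genes were higher and 5.08% lower): EMCN, a sialomucin of capillaries and veins, was higher (0.35) and PECAM1, an endothelial junction protein, lower (-0.21). EMCN stood at percentile 96.3 of all genes in signal and PECAM1 at 18.8, and 2 of the 12 lay above the median signal. The mean log2 signal of the endothelial list ran from 5.09 to 5.28 in BL-8040 tumours and from 5.14 to 5.20 in controls. Of 8 pericyte markers 6 were lower, 3 of them at an unadjusted p under 0.05 (5.08% of all genes). In BL-8040 replicate 3, 5 of the 8 were lowest, as were 30.5% of all genes. KCNJ8, a potassium channel of pericytes, differed by -0.53, its partner subunit ABCC9 by -0.38 and the adhesion protein MCAM by -0.53 (-0.26 without BL-8040 replicate 3), and the list mean ran from 7.05 to 7.32 in BL-8040 tumours and from 7.37 to 7.50 in controls. The rest of the list, NOTCH3, RGS5, PDGFRB (also a fibroblast marker here), HIGD1B and CSPG4, differed by -0.15, 0.05, -0.04, -0.02 and 0.02. Whether vessel cells had a part in the type IV or type VI values was not tested.

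Type VI collagen, which forms beaded filaments around cells from different chains, held the lowest difference of the family. COL6A1 measured 8.37, 8.38 and 7.88 in the BL-8040 tumours, against 8.42, 8.62 and 8.52 in the controls. The groups did not overlap, yet the values of BL-8040 replicates 1 and 2 lay just below the lowest control, and replicate 3 far below. COL6A2 measured 7.72, 7.75 and 7.59 in the BL-8040 tumours, against 7.76, 7.96 and 7.94 in the controls, again without overlap and again with BL-8040 replicate 3 lowest. COL6A3, the longest chain, measured 9.55, 9.55 and 9.41, against 9.55, 9.47 and 9.40, and its groups overlapped.

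The differences of the type VI chains were -0.31 ± 0.13 for COL6A1 (0.807 times the control level), -0.20 ± 0.08 for COL6A2 (0.871 times) and 0.03 ± 0.08 for COL6A3 (SE). The limma unadjusted p was 0.0455 for COL6A1 and 0.0418 for COL6A2, with an adjusted p of 0.644 in both, and that of COL6A3 was 0.914. Without BL-8040 replicate 3 the COL6A1 difference was -0.15 in place of -0.31 and the unadjusted p of both genes was above 0.05. The COL6A1 over COL6A3 ratio was lower in all 3 BL-8040 tumours than in any control, and its group means differed by -0.34 log2 units. Around its 6-array mean the ratio stood at -0.06, -0.05 and -0.40 in BL-8040 replicates 1, 2 and 3. In control replicates 1, 2 and 3 it stood at -0.005, 0.27 and 0.25. The exact two-sided permutation p was 0.1, the smallest that 3 against 3 can give. It was the lowest p among 14 partner ratios compared, and its adjusted p was 0.891. COL6A5 and COL6A6, the later-found alternatives to COL6A3, were dim, with differences of 0.06 and -0.09 (0.0061 and -0.035 without BL-8040 replicate 3).

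**Figure D3:**
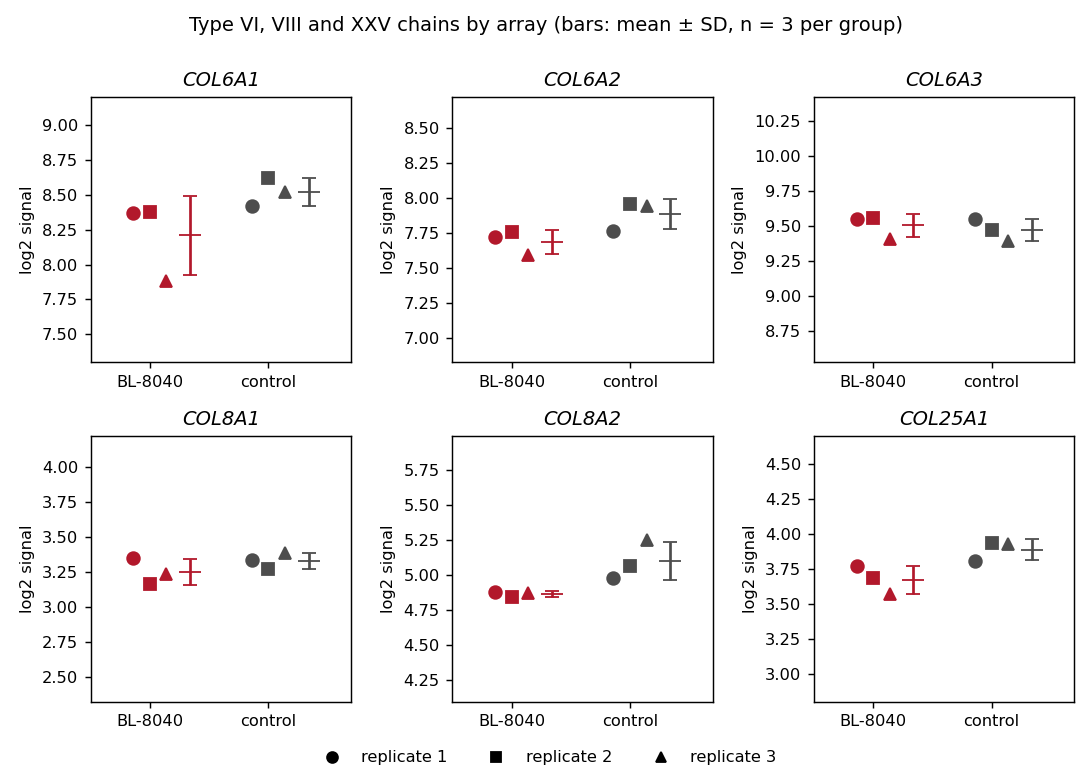
Log2 signal of 6 chains of type VI, type VIII and type XXV collagen in each BL-8040 and control array; marker shapes give the replicate number, bars are mean ± SD (n = 3 per group), and every panel spans the same number of log2 units. COL6A1, COL6A2, COL8A2 and COL25A1 have all 3 BL-8040 values below the controls, whereas COL6A3 and COL8A1 overlap.

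Type VIII collagen is a short-chain network former of vessel walls and of the cornea. COL8A2 measured 4.88, 4.84 and 4.87 in the BL-8040 tumours, against 4.98, 5.06 and 5.25 in the controls. Its treated values lay close together (SD 0.02, against 0.14 in controls) and below every control. Its difference of -0.24 ± 0.08 (SE) had the smallest unadjusted p of the family, 0.0207, and a limma adjusted p of 0.644. With an array left out the difference ran from -0.295 to -0.161, the latter without control replicate 3. The signal of COL8A2 lay at percentile 33.1 of all genes. COL8A1 measured 3.35, 3.16 and 3.24, against 3.33, 3.27 and 3.38, with overlap. COL25A1, a transmembrane collagen of neurons that takes part in the innervation of muscle, measured 3.77, 3.68 and 3.57 in the BL-8040 tumours, against 3.81, 3.93 and 3.93 in the controls. Its highest treated value lay just below its lowest control, at a signal of percentile 17.0, and its difference was -0.21 ± 0.08 (SE; unadjusted p = 0.0259, limma adjusted p = 0.644).

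Among the fibril-associated collagens, which coat fibrils and have interrupted helices, 7 of 10 had a negative difference, beside 58.5% of all genes. At an unadjusted limma p under 0.05 stood 0 of the 10, where 5.08% of all genes were lower and 2.64% higher. COL14A1, which binds type I fibrils, measured 7.93, 8.08 and 8.01 in the BL-8040 tumours, against 8.07, 7.95 and 7.73 in the controls. COL12A1, its close relative in tendon and stroma, measured 3.60, 3.66 and 4.16 in the BL-8040 tumours, against 3.69, 3.69 and 3.72 in the controls. The array of BL-8040 replicate 3 alone stood high. COL1A1, COL1A2, COL6A1 and COL12A1 were the 4 chains whose SD among BL-8040 tumours exceeded percentile 95 of all genes; 0 chains did so in the controls. COL9A1, COL9A2 and COL9A3, which assemble on cartilage fibrils, differed by -0.13, -0.07 and -0.14, and by -0.088, -0.018 and -0.040 without control replicate 3. COL20A1 and COL22A1 had groups without overlap at differences of only -0.09 and -0.11.

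The fibril-associated COL16A1, COL19A1 and COL21A1 differed by -0.01, -0.05 and 0.02, each with either sign when an array was left out. The remaining chains, outside the fibril-associated group, differed by between -0.15 and -0.04. COL26A1 measured 6.82, 6.72 and 6.98 in the BL-8040 tumours, against 6.87, 6.88 and 6.89 in the controls, so that the treated values again enclosed the controls. COL7A1, which anchors epithelium to the tissue below, stood at 5.51 ± 0.03 in BL-8040 tumours and 5.66 ± 0.10 in controls (SD, n = 3 each; limma adjusted p = 0.655), without overlap between the groups and with a difference of -0.15. COL10A1, of growth plate cartilage, differed by -0.09 (-0.057 without BL-8040 replicate 1) and COL28A1 by -0.13 (-0.052 without BL-8040 replicate 2). The transmembrane chains COL13A1 and COL23A1 differed by -0.07 and -0.05, and by 0.042 and -0.022 without control replicate 3.

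Compared by class, the median difference was -0.03 for the fibrillar, -0.05 for the basement membrane and -0.08 for the other chains, beside -0.02 over all genes. A negative difference was found in 7 of 11 fibrillar, 5 of 8 basement membrane and 19 of 24 other chains. Groups without overlap, all of them lower, numbered 1 of 11 (9.09%), 2 of 8 (25.0%) and 7 of 24 (29.2%), beside 9.05% of all genes. The list medians of the deviation from each gene's 6-array mean were 0.01, -0.08 and 0.05 in the BL-8040 and -0.09, 0.01 and 0.10 in the control tumours for fibrillar chains. They were -0.07, -0.03 and -0.05, against -0.003, 0.03 and 0.06, for basement membrane chains, and -0.03, -0.05 and -0.03, against 0.002, 0.01 and 0.08, for the other chains. The array medians of the groups thus overlapped for fibrillar chains and, by a narrow gap, did not for the other classes. For the 6 type IV chains alone, without COL15A1 and COL18A1, they overlapped. They were -0.05, 0.04 and -0.06 in the BL-8040 tumours, against 0.01, 0.02 and 0.02 in the controls.

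The counts of lower chains changed with single tumours of either group. Control replicate 3 held the highest value of 20 of 43 chains (46.5%) and of 20.8% of all genes, and among the 29 chains at or below the median signal it held 16 (55.2%), against 28.3% of all genes there. Without control replicate 3, 0 chains were lower at an unadjusted limma p under 0.05; without control replicate 1 the number was 8, without BL-8040 replicate 3 or control replicate 2 it was 1, and without BL-8040 replicate 2 it was 2. The counts over all genes moved as well: the number lower was 935 with every array, 664 without control replicate 3, 1135 without control replicate 1, 716 without BL-8040 replicate 3, 578 without control replicate 2 and 1015 without BL-8040 replicate 2. The lowest value of a chain lay most often in BL-8040 replicate 2 (14 of 43, against 13.9% of all genes). In control replicate 2 it lay in 0 chains, against 12.3% of all genes. Over all genes BL-8040 replicate 3 was lowest most often (30.5%).

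**Figure D4:**
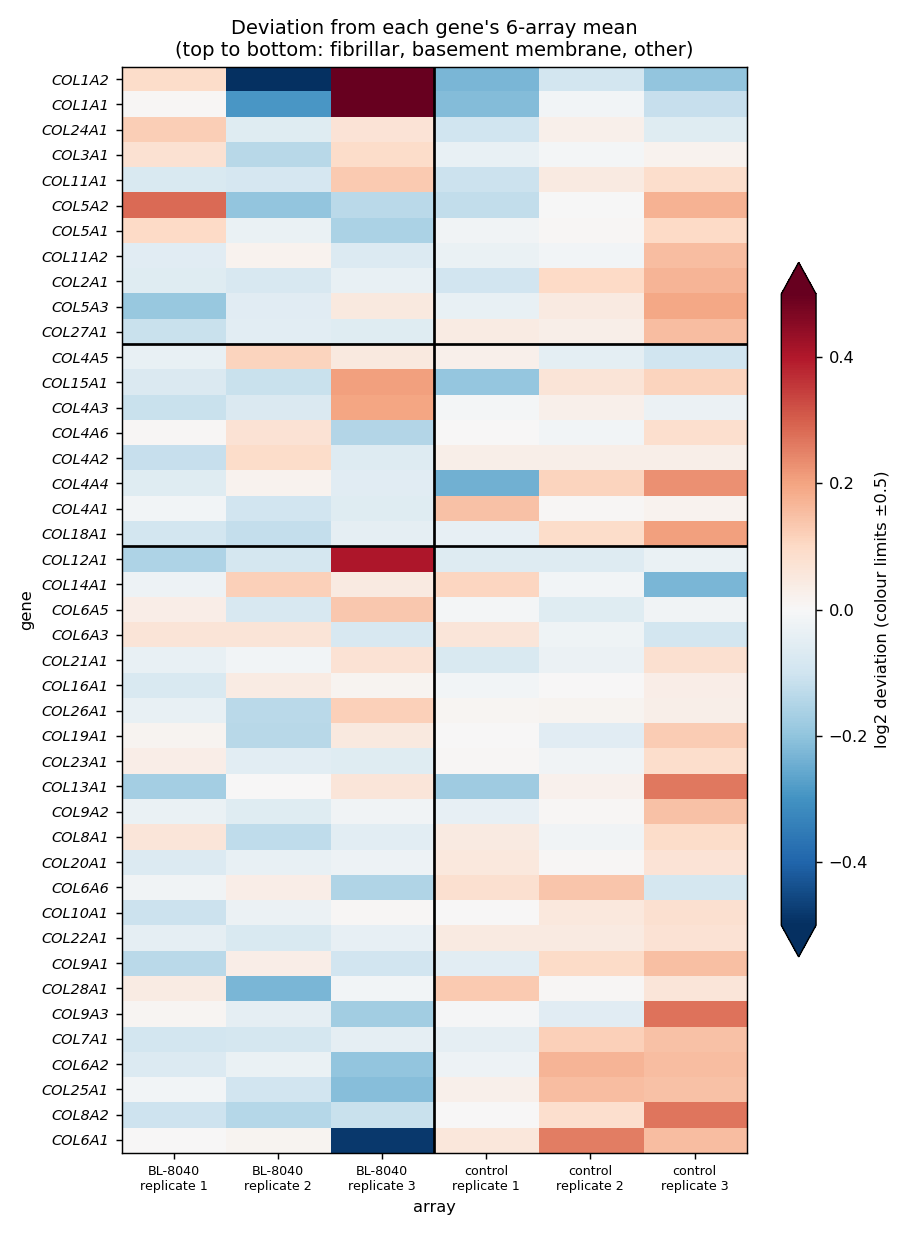
Deviation of each collagen chain gene (rows) from its own 6-array mean in each array (columns, BL-8040 left and control right), in log2 units with colours capped at 0.5; rows run from fibrillar through basement membrane to other chains. The strongest colours are those of COL1A1, COL1A2, COL12A1 and COL6A1 in BL-8040 replicate 3 and of COL1A2 in BL-8040 replicate 2, and 20 of the 43 chains are highest in control replicate 3.

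The enzymes that build collagen were read from lists of known genes. Collagen chains are hydroxylated on proline and lysine and folded in the endoplasmic reticulum, and of 17 measured genes of this step 12 had a negative and 5 a positive difference, with a median of -0.03. At an unadjusted p under 0.05 stood 1 of them, lower, a share near the 5.08% of all genes: P3H2, a prolyl 3-hydroxylase that acts on type IV collagen, at 7.58, 7.50 and 7.53 in BL-8040 tumours, against 7.73, 7.77 and 7.64 in controls (limma adjusted p = 0.644). P4HA2, a catalytic subunit of prolyl 4-hydroxylase induced by low oxygen, measured 7.32, 7.64 and 7.12, against 7.46, 7.90 and 7.64. Its groups overlapped, and its difference was -0.31 in all and -0.19 without BL-8040 replicate 3. CRTAP, a partner of prolyl 3-hydroxylase, was lower without overlap (-0.15) and P3H3 higher without overlap (0.12), neither with an unadjusted p under 0.05, and without BL-8040 replicate 3 they differed by -0.091 and 0.038. Control replicate 2 held the highest value of 12 of these 17 genes, and of 22.4% of all genes.

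Of 18 genes of export, propeptide removal and crosslinking, 6 were higher and 12 lower, with 1 in each direction at an unadjusted p under 0.05, beside 2.64% of all genes higher and 5.08% lower. LOXL4, a lysyl oxidase relative that crosslinks collagen, measured 6.271, 5.998 and 5.997 in the BL-8040 tumours, against 5.613, 5.766 and 5.831 in the controls. Every treated value exceeded every control, and the difference of 0.35 ± 0.10 (SE), 1.28-fold, had a limma adjusted p of 0.644; with an array left out it ran from 0.26 to 0.40. ADAMTS14, which trims the amino ends of fibrillar procollagens, differed by -0.20, SEC23A, a coat protein needed for procollagen export, by 0.13, and MIA2 by 0.19 (0.13 without control replicate 2).

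Among 12 collagen receptor genes 5 were higher and 7 lower. At an unadjusted limma p under 0.05 stood 0 of the 12, where 2.64% of all genes were higher and 5.08% lower. ITGA2, the alpha chain of a collagen-binding integrin, differed by -0.16, its beta partner ITGB1 by 0.13, the collagen uptake receptor MRC2 by -0.09 and the platelet receptor GP6 by -0.06. Without BL-8040 replicate 3 the values were -0.079 for ITGA2, 0.026 for ITGB1 and -0.048 for MRC2, and without BL-8040 replicate 2 that of GP6 was 0.0070. Of 11 fibril-binding proteins 6 were higher and 5 lower. FN1, the fibronectin on which collagen fibrils are laid, measured 9.90, 9.77 and 10.01 in the BL-8040 tumours, against 9.61, 9.73 and 9.58 in the controls. It was higher in every treated tumour, by 0.25 ± 0.09 (SE; limma adjusted p = 0.644), and was the only gene of this list at an unadjusted p under 0.05 (2.64% of all genes were higher). ASPN, a small proteoglycan that binds type I collagen, differed by -0.36 in all and by -0.11 without BL-8040 replicate 3, FMOD by -0.26 (-0.075 without control replicate 2) and LUM by 0.10 (0.051 without control replicate 3).

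The partners of type IV collagen in the basement membrane gave 6 higher and 7 lower genes of 13 measured. LAMC3, a laminin gamma chain, measured 6.47, 6.51 and 6.23 in the BL-8040 tumours, against 6.65, 6.65 and 6.72 in the controls, and was the only one at an unadjusted p under 0.05, beside 5.08% of all genes lower (-0.27 ± 0.09, SE; limma adjusted p = 0.644). LAMB3 differed by 0.22, LAMC1 by -0.07 and LAMB1 by -0.09, and without BL-8040 replicate 3 by -0.035, -0.045 and -0.016. None of the measured genes of the 5 lists passed after adjustment over all genes, where 0% of all genes did.

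**Figure D5:**
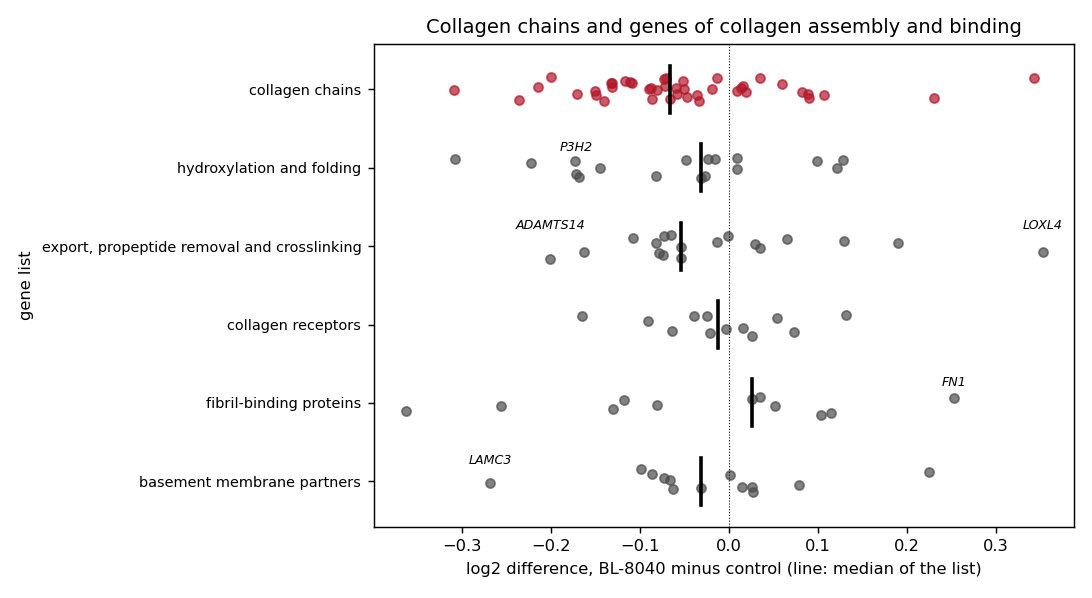
Log2 difference, BL-8040 minus control, of the 43 collagen chain genes (top row, red) and of genes of collagen assembly and binding in 5 lists (grey); each point is a gene, the thick line is the list median, vertical scatter within a row carries no value, and list genes with an unadjusted limma p under 0.05 are named. The medians lie between -0.07 for the chains and 0.03 for fibril-binding proteins, and LOXL4 (0.35) and FN1 (0.25) lie farthest right in their lists.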

How the data were processed

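Tumour RNA from 6 mice was hybridised to Affymetrix Human Gene 1.0 ST arrays, per the series' design text. The authors deposited log2 values, 1 column per array and 33297 probe sets; the scale was read from the values. The submitters' processing notes name Partek 6.6 without its role, and background correction, normalization and summarization are steps not given in the sources used here. Groups and replicate numbers come from the sample titles. Probe sets with exactly 1 platform symbol (19460) were kept, the brightest per gene, which gave 18417 genes; nothing was filtered or normalized again. Groups were compared with limma 3.58.1 in R 4.3.3 (lmFit, eBayes, two-sided, no replicate block), with Benjamini-Hochberg adjustment across the 18417 genes and a threshold of 0.05, and the fit was tested on simulated data. With 3 arrays per group, their number limits the precision. Members and lists were chosen with earlier results of these data known. Named were the 5 brightest chains per class, those with unadjusted p under 0.05 or without overlap at 0.3 log2 units or more, their partner chains, and up to 4 genes of smallest p per list; other chains are named with fewer values, and marker genes named singly were chosen after their values were seen. Alternatives were filters on dim genes, the mean of probe sets, quantile normalization, median centring, array weights, robust moderation with a trend, the replicate block, the class borders and leaving out each array. Human sequences and positions were not used here.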

Additional observations from a re-analysis of the deposited data

How the results depend on the processing

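With each alternative run, 0 of the 43 collagen chains and 0 of all genes had a limma adjusted p under 0.05; the smallest of the 21 chains tracked across alternatives was 0.475. The 4 chains lower at an unadjusted p under 0.05 became 2 under either filter on dim genes (14 chains tested) and between 0 and 8 with an array left out; the 0 higher ones became up to 2 (COL1A1 and COL1A2, without BL-8040 replicate 2). Over all genes 935 were lower at that p, 362 and 371 under the filters at the median signal and at log2 6, which test fewer genes, and between 578 and 1135 with an array left out. The basement membrane median of -0.05 was -0.17 under either filter, where COL18A1 alone was tested, and ran from -0.091 to -0.011 with an array left out, the other chains' median from -0.092 to -0.047 and the fibrillar median from -0.083 to 0.020 (without control replicate 3; it was 0.019 under either filter, with 5 chains). Of the 21 chains, 10 kept their sign whichever array was left out. The rest ran from -0.0013 to 0.166 (COL14A1), -0.028 to 0.435 (COL1A1), -0.077 to 0.722 (COL1A2), -0.104 to 0.024 (COL26A1), -0.022 to 0.093 (COL3A1), -0.088 to 0.067 (COL4A3), -0.203 to 0.032 (COL4A4), -0.095 to 0.015 (COL4A6), -0.125 to 0.0043 (COL5A1), -0.183 to 0.057 (COL5A2) and -0.0030 to 0.083 (COL6A3). With array weights COL4A3 was -0.057 and COL5A2 0.046. Same-numbered arrays correlated between -0.04 and 0.08 in their deviations. The labels do not say whether the numbers pair tumours, and with 3 arrays per group these correlations cannot decide it. With the replicate block 3 chains in place of 4 were lower at an unadjusted limma p under 0.05 (COL6A2 no longer). No call at the adjusted threshold changed. Causes were not tested.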

Other observations

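The array order shared by COL1A1 and COL1A2 was found in 32 of 18417 genes (0.174%), and in no other gene of the collagen, pathway or marker lists. The order was taken from COL1A1 and COL1A2, which are counted among the 32, so this share tests no link between them. Of the probe sets not used for a chain, that annotated to both PNLIP and COL1A2 stood at 2.82 ± 0.16 in BL-8040 tumours and 2.86 ± 0.12 in controls (log2, SD, n = 3 each). COL18A1-AS1, the antisense transcript of COL18A1, stood at 4.35 ± 0.08 in BL-8040 tumours and 4.36 ± 0.10 in controls, a difference of -0.01 beside the -0.17 of COL18A1.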
